A study of Mus musculus with 2 samples.

Results

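Mir183, Mir96 and Mir182 are 3 microRNA (miRNA) genes that lie side by side on mouse chromosome 6 and are transcribed in the same direction. They were taken by their gene symbols from the 2202 miRNA genes in the count tables, and all 3 were found. The tables come from the adrenal gland of female B6CASTF1/J mice, hybrids of C57BL/6J and CAST/EiJ, aged 18 to 20 months. Small RNA of total RNA, listed with a size range under 30, was sequenced in 1 group of 2 biological replicates, each a separate tissue sample listed under the same donor record. No treatment is given. The data therefore describe levels in this tissue and the difference between its libraries, which may be technical.

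A miRNA is cut from a hairpin in a longer transcript and guides the silencing machinery to messenger RNAs, mainly through its seed, bases 2 to 8 counted from its 5′ end. The Mir183 cluster is best known from sensory cells such as inner ear hair cells, photoreceptors and olfactory neurons, and changes in the seed of Mir96 cause hearing loss. Its members have related seeds, and miR-96 and miR-182 are known to repress the transcription factor Foxo1. The adrenal gland holds a steroid-producing cortex and a neuroendocrine medulla. Bulk libraries do not separate them, so fewer cells of a type and less RNA per cell cannot be told apart.

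The mature 5p sequences, from RefSeq on GRCm38.p6, are shown because the relation of the members lies in their first bases. Capitals mark the seed.
mmu-miR-183-5p: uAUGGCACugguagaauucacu
mmu-miR-96-5p: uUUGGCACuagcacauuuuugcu
mmu-miR-182-5p: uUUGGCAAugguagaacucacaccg

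All 3 mature 5p sequences carry UGGCA at bases 3 to 7, and 5 of 1674 distinct mature mouse sequences in the RefSeq table (0.299%) carry it at these positions. The other two are mmu-miR-1271-5p and mmu-miR-7022-5p. Compared base by base from the 5′ end without gaps, and with the first named sequence given first, miR-183-5p and miR-182-5p were identical at 18 of 22 positions. Inside the seed they differed by A2U and C8A, and beyond it by U17C and U22A. In miR-96-5p and miR-182-5p 12 of 23 positions were identical, with C8A as the only seed difference. In miR-183-5p and miR-96-5p 13 of 22 were identical, with A2U as the only seed difference. Over the whole molecule miR-183-5p and miR-182-5p were thus the closest pair (81.8% of positions), and miR-96-5p was farther from either (59.1% and 52.2%). The members have 3 different seeds.

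The 3p sequences, from the other side of each hairpin, are shown for contrast because none of them carries UGGCA at bases 3 to 7. Their seeds differ from each other as well.
mmu-miR-183-3p: gUGAAUUAccgaagggccauaa
mmu-miR-96-3p: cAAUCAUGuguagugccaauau
mmu-miR-182-3p: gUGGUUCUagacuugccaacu

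Reads were counted per hairpin gene, so the counts below do not separate the 5p from the 3p product. The hairpins are given with both mature sequences in capitals, since they are what a count refers to. The GENCODE M21 transcripts have the same bases as the RefSeq hairpins for all 3 genes.
Mir183: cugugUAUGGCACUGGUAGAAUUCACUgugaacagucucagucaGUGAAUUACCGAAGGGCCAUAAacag
Mir96: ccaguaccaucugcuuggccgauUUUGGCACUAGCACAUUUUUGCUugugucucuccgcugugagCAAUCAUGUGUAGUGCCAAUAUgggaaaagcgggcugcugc
Mir182: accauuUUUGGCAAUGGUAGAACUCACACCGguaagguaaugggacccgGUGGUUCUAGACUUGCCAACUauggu

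Each of the 6 mature sequences occurred in 1 annotated miRNA gene, and none of the hairpins shared 18 bases with another miRNA gene, as 1120 of the 2202 genes did. The members are therefore not among the genes that lose reads because another annotated miRNA gene has the same sequence. Matches elsewhere in the genome were not analysed here. The build is of C57BL/6J, and whether CAST/EiJ alleles changed the counts was not tested.

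In mm10 coordinates with GENCODE M21, Mir183 (ENSMUSG00000065619.2) lies at chr6:30169668-30169737, Mir96 (ENSMUSG00000065586.1) at chr6:30169446-30169551 and Mir182 (ENSMUSG00000076361.1) at chr6:30165918-30165992, all on the minus strand. Mir183 comes first in the direction of transcription. Mir96 follows after 116 bases and Mir182 after another 3453 bases, so that the cluster spans 3820 bases. No GENCODE M21 gene contains it. The nearest annotated gene on one side is Nrf1, a transcription factor gene 12459 bases away, and on the other Rncr4, a noncoding gene 3155 bases away. RefSeq places all 3 hairpins inside the long noncoding gene Mirc35hg (chr6:30158640-30174125), whose start lies 4388 bases upstream of Mir183.

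**Figure D1:**
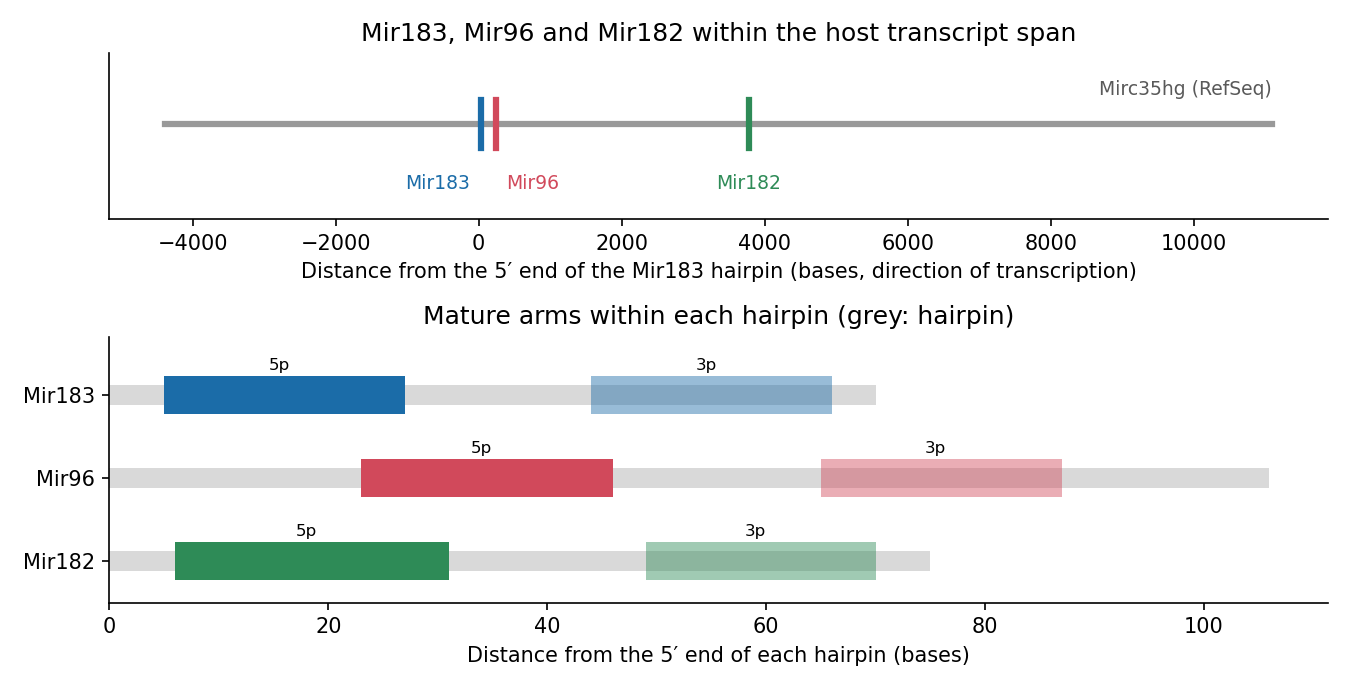
Map of the cluster. Upper panel: the hairpins within the span of RefSeq Mirc35hg, with distance in bases from the 5′ end of Mir183 (x axis). Lower panel: the mature 5p (dark) and 3p (light) sequences within each hairpin (grey), with distance from the hairpin's 5′ end. Mir183 and Mir96 are 116 bases apart, and Mir182 lies 3453 bases beyond Mir96.

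The sequence around the Mirc35hg start is shown because RefSeq gives the 3 hairpins this one start. It is the RefSeq promoter window at chr6:30174076-30174375 (GRCm38.p6, minus strand), from 250 bases before to 50 after the start, with CG pairs in capitals.
Mirc35hg: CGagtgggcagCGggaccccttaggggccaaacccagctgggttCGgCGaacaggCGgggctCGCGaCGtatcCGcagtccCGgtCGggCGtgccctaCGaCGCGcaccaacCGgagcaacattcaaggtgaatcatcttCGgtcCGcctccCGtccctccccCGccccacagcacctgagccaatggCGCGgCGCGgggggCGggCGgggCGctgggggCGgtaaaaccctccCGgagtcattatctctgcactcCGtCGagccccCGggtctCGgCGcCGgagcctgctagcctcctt

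This window held 35 CG pairs and 70.3% G and C, against medians of 7 pairs and 52.7% over 32851 promoter windows of the same length. Of those windows, 93.0% had fewer CG pairs. Searched on both strands, the GC box GGGCGG occurred 4 times (at least once in 35.7% of all windows) and the E-box CANNTG 2 times (72.3% of windows). The cAMP response element TGACGTCA (1.79% of windows) and CAAGGTCA, the element bound by the adrenal factor NR5A1 (1.56% of windows), did not occur in this window. A match describes letters, and no binding was measured.

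All 3 members were detected in the adrenal gland, in the order Mir182, Mir183, Mir96. Levels are counts per 1000000 (CPM) of the own-strand counts of each library, 2590051 in replicate 1 and 2291030 in replicate 2, with Wilson 95% intervals. Mir182 had 2145 counts in replicate 1 and 1411 in replicate 2. These are 828 CPM (794 to 864) and 616 CPM (585 to 649), a mean of 722 ± 150.1 CPM (SD, n = 2). Replicate 1 was the higher library, and the intervals did not overlap.

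Mir183 had 1457 counts in replicate 1 and 946 in replicate 2. These are 563 CPM (534 to 592) and 413 CPM (387 to 440.1), a mean of 488 ± 106 CPM (SD, n = 2). Again replicate 1 was higher with no overlap of the intervals.

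Mir96 had 75 counts in replicate 1 and 45 in replicate 2. These are 29.0 CPM (23.1 to 36.3) and 19.6 CPM (14.7 to 26.3), a mean of 24.3 ± 6.59 CPM (SD, n = 2). Here the intervals overlapped. Both counts stood well above the 3 counts that a count of 0 allows, which are 1.16 and 1.31 CPM in replicates 1 and 2. PCR copies are not independent molecules, and so the intervals and this limit hold for counting error alone.

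The ranges of Mir182 and Mir183 over the libraries did not overlap, but they came close. The level of Mir182 in replicate 2 (616 CPM) lay close to that of Mir183 in replicate 1 (563 CPM), yet Mir182 was the higher gene in each library. Mir96 lay far below both, with every Mir96 value under every value of the other two. Among all 2202 genes Mir182 ranked 92, Mir183 ranked 112 and Mir96 ranked 259 by mean CPM. Of the 339 miRNAs with at least 10 counts in each library, 72.9% were lower than Mir182, 67.0% lower than Mir183 and 24.5% lower than Mir96. Together the 3 genes held 1420 CPM in replicate 1 and 1048 CPM in replicate 2, or 0.123% ± 0.0262 of counts (SD, n = 2).

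Counts of different miRNAs were compared as reads, without division by hairpin length, because the library holds fragments under 30 in size and the mature 5p sequences are similarly long, at 22 (miR-183), 23 (miR-96) and 25 bases (miR-182). How well each sequence enters such a library was not tested. The order of levels between genes is therefore an order of reads.

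The make-up of the cluster was nearly the same in both libraries. Of the 3 genes' counts, Mir182 held 58.3% (56.7 to 59.9, Wilson 95% interval) in replicate 1 and 58.7% (56.8 to 60.7) in replicate 2. Mir183 held 39.6% (38.1 to 41.2) and 39.4% (37.4 to 41.4). Mir96 held 2.04% (1.63 to 2.55) and 1.87% (1.40 to 2.50). The intervals of the libraries overlapped for each of the 3 genes.

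Expressed as ratios, Mir182 had 1.47 reads for each read of Mir183 in replicate 1 and 1.49 in replicate 2. For each read of Mir96 there were 28.6 and 31.4 reads of Mir182, and 19.4 and 21.02 of Mir183. The change of these ratios from replicate 1 to replicate 2 was 1.01-fold for Mir182 to Mir183 (95% interval 0.910 to 1.13). It was 1.10-fold for Mir182 to Mir96 (0.743 to 1.63) and 1.08-fold for Mir183 to Mir96 (0.731 to 1.62). None of the 3 pairs passed the two-sided Fisher's exact test, which needs no scaling of the libraries (p = 0.829, 0.704 and 0.703 in this order, and 0.829 for each when adjusted over the 3 pairs). These intervals hold counting error only and take each read as independent. Within that limit, the interval for Mir182 and Mir183 allows a change of at most 1.13-fold. For the pairs with Mir96 it allows up to 1.63-fold, so a moderate change in the share of Mir96 was not detectable at its 120 counts.

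**Figure D2:**
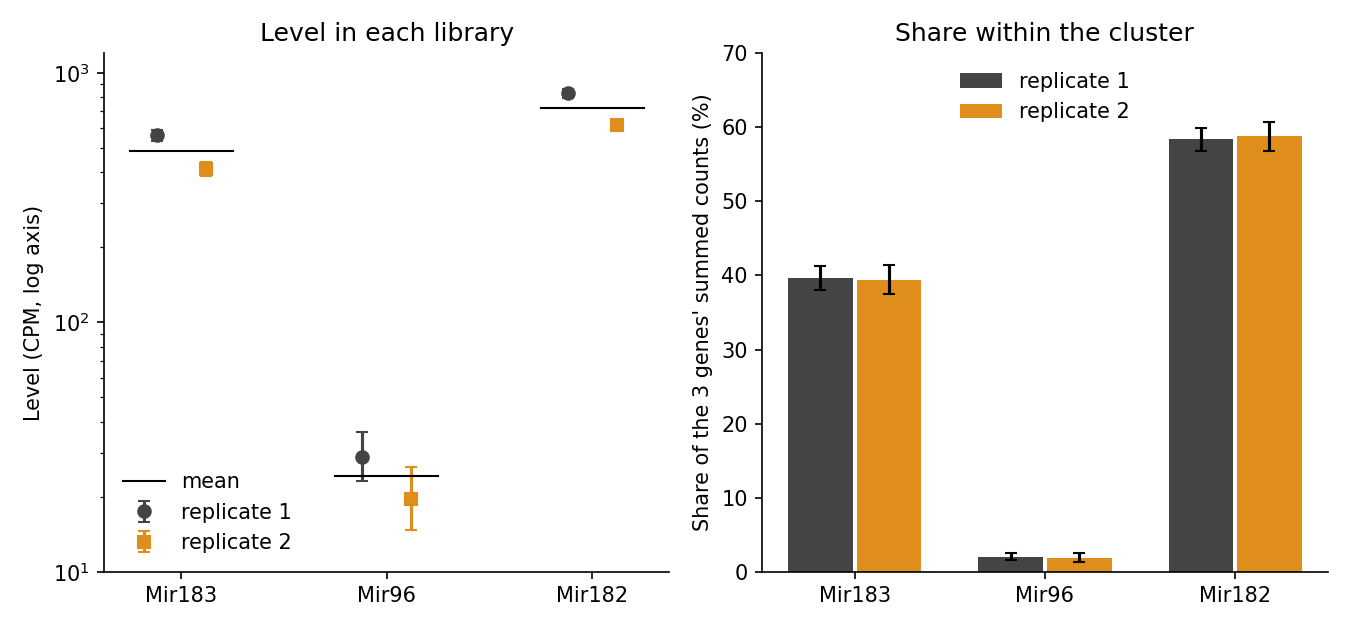
Level and share of each member. Left: CPM on a log axis in replicate 1 (circles) and replicate 2 (squares), with Wilson 95% intervals as error bars and the mean as a line. Right: share of the 3 genes' summed counts in percent, with Wilson 95% intervals. Replicate 1 is above replicate 2 for each gene on the left, while the paired bars on the right reach nearly the same height.

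Between the libraries, Mir182 and Mir183 were higher in replicate 1 and Mir96 had a difference of similar size that did not pass the test. The raw counts entered an exact conditional binomial test, two-sided, with totals scaled by edgeR's TMM factors. Benjamini-Hochberg adjustment covered the 367 miRNAs whose counts summed to 20 or more. Ratios are given as log2 of replicate 2 over replicate 1. Mir182 had a log2 ratio of -0.39 (95% interval -0.49 to -0.29), 1.31-fold higher in replicate 1 (adjusted p 7.15e-15, exact test). Mir183 had a log2 ratio of -0.41 (-0.53 to -0.29), 1.33-fold higher in replicate 1 (adjusted p 2.60e-11, exact test).

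Mir96 had a log2 ratio of -0.52 (-1.09 to 0.03), or 1.43 times as much in replicate 1, and missed the threshold (adjusted p 0.0836, exact test). Its interval includes the ratios of Mir182 and Mir183 as well as no difference. When genes that share 18 bases with another gene were left out of scaling and testing, Mir96 passed (log2 ratio -0.60, adjusted p 0.0455, exact test).

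A call was common in these libraries. Of the 367 miRNAs tested, 62.7% differed in the exact test and 32.4% were higher in replicate 1. The cluster's 2 of 3 is near the first share, and with 3 genes neither count is a result about the cluster. Of the 113 miRNAs with at least as many counts as Mir183, 93.8% were called. The size of the differences was also ordinary, since 42.2% of tested miRNAs had a smaller absolute ratio than Mir182, 44.4% a smaller one than Mir183 and 53.1% a smaller one than Mir96. The median absolute log2 ratio over all tested miRNAs was 0.46.

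The exact test knows counting error only. When the spread between the libraries over all tested miRNAs was taken into account (edgeR's exact test with a common dispersion, a biological coefficient of variation of 0.432), 1.36% of miRNAs were called. None of the members was among them, with adjusted p of 1.0 for Mir182, Mir183 and Mir96. The differences of Mir182 and Mir183 thus exceeded counting error but did not pass against the spread that these libraries showed over all miRNAs. That spread was estimated from the same 2 libraries that were compared. A ratio of ordinary size was therefore unlikely to pass, and this outcome is no separate evidence about the members.

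The size of the difference also depended on what the counts were set against. The share of all reads in the table that was counted in a miRNA gene was 26.4% in replicate 1 and 32.8% in replicate 2. Per 1000000 reads of the whole table, Mir182 stood at 219 and 202, Mir183 at 149 and 135 and Mir96 at 7.65 and 6.43 in replicates 1 and 2. On this scale the log2 ratios shrank to -0.12 for Mir182 (adjusted p 0.0289), -0.13 for Mir183 (0.0379) and -0.24 for Mir96 (0.461, exact test). The median of all tested miRNAs moved from 0.02 to 0.29 on the log2 scale, and the share of calls that were higher in replicate 1 fell from 51.7% to 32.3%. Another total shifts every log2 ratio by the same amount, so the distance of the members to that median is the same on both scales.

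**Figure D3:**
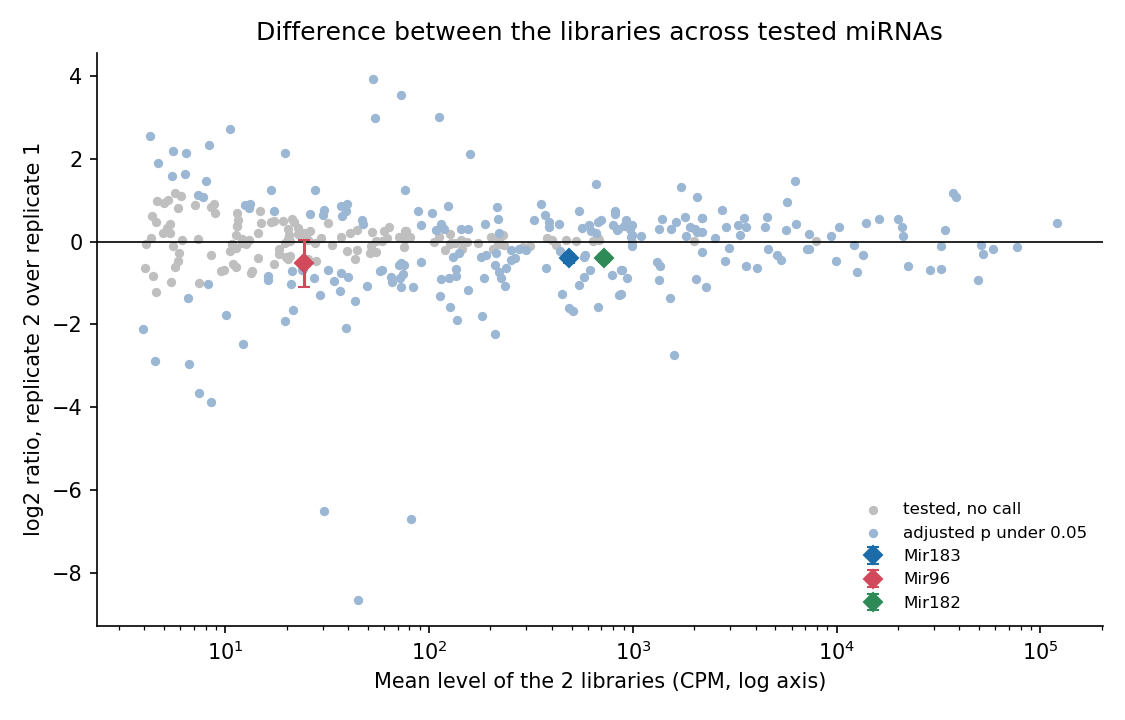
Difference between the libraries for the 367 tested miRNAs. The x axis is the mean level in CPM on a log axis and the y axis the log2 ratio of replicate 2 over replicate 1. Blue points passed the exact test (adjusted p of 0.05) and grey points did not. Diamonds are the members with 95% intervals. All 3 lie between -0.52 and -0.39, inside the cloud of other miRNAs, and only the interval of Mir96 reaches 0.

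The 3 members had similar ratios, and the distance between them can be set beside that in other groups of neighbouring miRNA genes. Clusters were formed from miRNAs with at least 10 counts in each library that lie on the same strand within 10 kb of each other, which gave 43 clusters. The lowest and highest log2 ratio of the Mir183 cluster were 0.13 apart. The lowest was that of Mir96, with 75 and 45 counts in replicates 1 and 2. Its interval (-1.09 to 0.03) is wider than this distance. The median distance was 0.72 over the 43 clusters and 0.94 over the 17 clusters with at least 3 genes. Such a distance tends to grow with the number of genes. Over the 10 clusters of exactly 3 genes, the Mir183 cluster among them, the median distance was 1.23. A smaller distance was found in 2 clusters, both of 2 genes, and in none of the other clusters with at least 3 genes. This ranking describes these libraries and was not tested. The counting error of Mir96 alone could change the place of the Mir183 cluster in it. Counting error also enters the distances of other clusters with few counts, such as that of Mir669e (12 counts in each library). Many of the other clusters hold genes that share 18 bases with another miRNA gene. Whether this changed their distances was not tested.

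The clusters with the most similar distance were Mir29b-2 with Mir29c on chromosome 1 (0.03), Mir212 with Mir132 on chromosome 11 (0.07) and Mir30c-1 with Mir30e on chromosome 4 (0.15). Mir29b-2 and Mir29c, of a family known for repressing collagen genes, were both higher in replicate 1, as were Mir212 and Mir132, which respond to CREB. Mir30c-1 and Mir30e were both higher in replicate 2. Each of these clusters, like the Mir183 cluster, held genes of very unequal level. The highest member exceeded the lowest 29.7-fold in the Mir183 cluster, 49.4-fold in the Mir29c cluster, 35.3-fold in the Mir132 cluster and 30.2-fold in the Mir30e cluster. Mir29b-2, Mir29c, Mir30c-1 and Mir30e share 18 bases with other miRNA genes and can be undercounted, which bears on their folds. The median over all 43 clusters was 12.7-fold, and 14 clusters had a wider range of levels than Mir182 over Mir96.

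**Figure D4:**
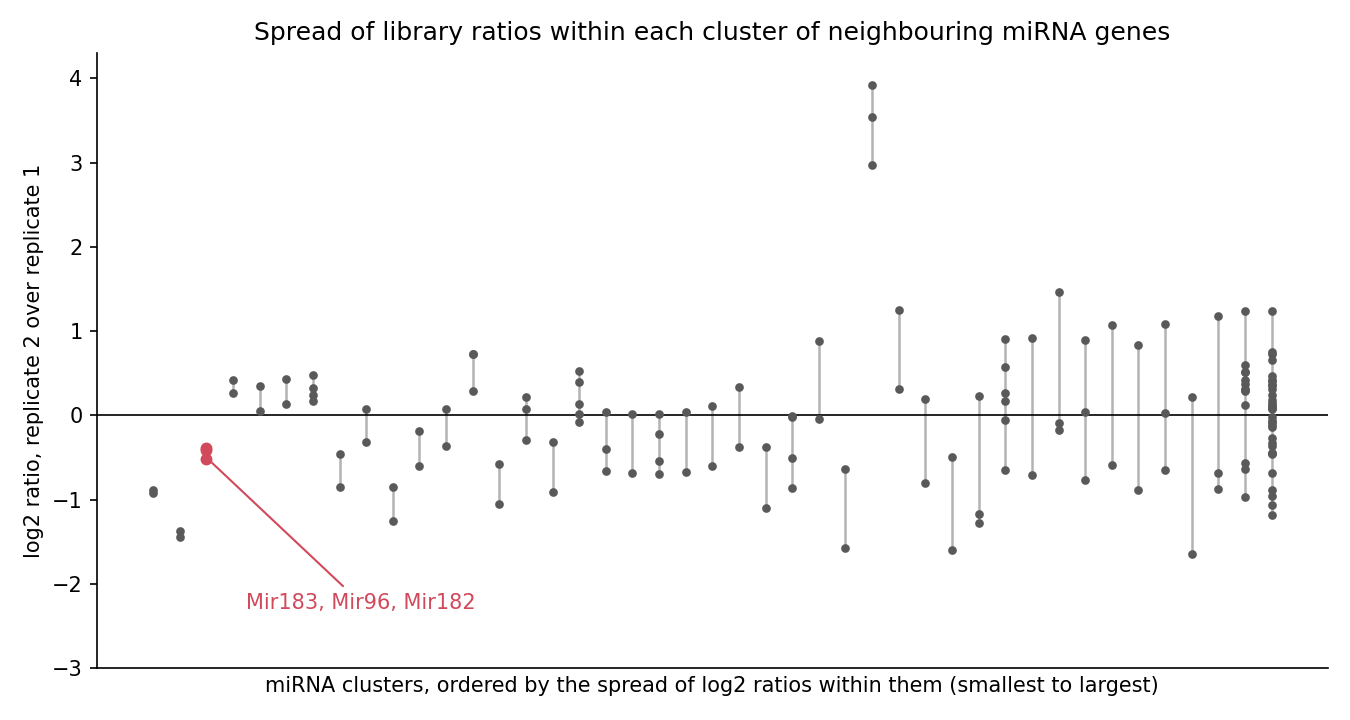
Log2 ratios of replicate 2 over replicate 1 (y axis) for the genes of each of 43 clusters of neighbouring miRNA genes, drawn as points joined by a line and ordered along the x axis by the distance between lowest and highest. The Mir183 cluster (red) is the third from the left, with 0.13 between its lowest and highest member.

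Outside the cluster, the next miRNA genes on chromosome 6 lay far off. On one side Gm23049, 177 kb away, had 0 counts in both libraries and was not tested. On the other side Mir335, 572 kb away and known for its imprinted host gene Mest, had 1691 CPM in replicate 1 and 2117 CPM in replicate 2. It was higher in replicate 2 (log2 ratio 0.36, adjusted p 1.25e-32, exact test).

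Few other miRNAs carry the seeds of the members, and none of these was detected. Gm24195, the gene of mmu-miR-1271-5p on chromosome 13, shares the seed of miR-96-5p, which is why its mature sequence is shown, and had 0 counts in each library.
mmu-miR-1271-5p: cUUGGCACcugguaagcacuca

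Mir3475 on the X chromosome shares the seed of miR-96-3p and also had 0 counts in each library, which allows up to 1.16 CPM in replicate 1 and 1.31 CPM in replicate 2. No mature sequence in the RefSeq table shared a seed with miR-183-5p or miR-182-5p. Among the annotated genes, Mir96 was thus the only one with the UUGGCAC seed that had counts.

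For each member, the 3 detected miRNAs nearest in log2(CPM + 1) over the 2 libraries were taken, as a description of level only. Nearest to Mir183 were Mir193b with 525 and 398 CPM, Mir137, a miRNA of neurons, with 478 and 399 CPM, and Mirlet7a-1 with 468 and 469 CPM. Nearest to Mir182 were Mir181d with 682 CPM in each library, Mir15b, which acts on cell cycle genes, with 1017 and 567 CPM, and Mirlet7c-1 with 666 and 686 CPM. Nearest to Mir96 were Mir378d with 29.7 and 18.3 CPM, Gm23450 with 29.3 and 21.4 CPM and Mir218-2 with 29.7 and 17.9 CPM. The distances ran from 0.10 to 0.13 for Mir96, from 0.11 to 0.32 for Mir183 and from 0.32 to 0.35 for Mir182. Mirlet7a-1, Mirlet7c-1 and Mir218-2 share 18 bases with other miRNA genes and can be undercounted.

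The cluster was also set beside lists of miRNAs of cell types that the tissue could hold. Its sum lay below those of the neuroendocrine, endothelial and leukocyte lists and above those of the muscle and sensory lists. The calls in these lists are from the exact test and are to be read against the 62.7% of all tested miRNAs that were called, and against the 1.36% called with edgeR's dispersion. By direction, 119 of the 367 tested miRNAs were higher in replicate 1 in the exact test and 111 in replicate 2. The neuroendocrine and neuronal list, chosen for the adrenal medulla and nerve, summed to 70194 CPM in replicate 1 and 60407 CPM in replicate 2 over 20 measured genes, 14 of which share 18 bases with another miRNA gene and can be undercounted. No list for the steroid-producing cortex was used. Nearly all of this was Mir375, a miRNA of endocrine cells, at 58242 ± 5942 CPM (SD, n = 2), which is 47.2 times the whole cluster. Mir7b, found in neuroendocrine cells, stood at 2838 ± 708 CPM (SD, n = 2), 2.30 times the cluster. Mir124a-1, Mir124a-2, Mir124a-3 and Mir9-2 had 0 counts in both libraries. In this list 13 genes were tested, with 7 called higher in replicate 1, 1 called higher in replicate 2 and a median log2 ratio of -0.17 against 0.02 over all tested miRNAs.

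The sensory organ and retina list was far lower than the cluster itself. Its 8 measured genes summed to 79.5 CPM in replicate 1 and 75.9 CPM in replicate 2, against 1420 and 1048 CPM for the 3 members. In this list Mir124a-1, Mir124a-2 and Mir124a-3, which are also in the neuroendocrine and neuronal list, had 0 counts in both libraries. Of its genes, 3 share 18 bases with another miRNA gene and can be undercounted, so the sum can be too low. Mir204, of retinal pigment epithelium, had 130 and 84 counts, or 43.4 ± 9.57 CPM, and Mir184, of lens and cornea, 71 and 83 counts, or 31.8 ± 6.23 CPM (SD, n = 2 each). Neither passed the exact test (log2 ratios -0.41 and 0.44, adjusted p 0.0625 and 0.0944). Mir204 and Mir184 were the only 2 detected genes of this list. Its sum therefore does not describe hair cells, photoreceptors or olfactory neurons, where the cluster is best known.

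The epithelial list summed to 1192 and 1871 CPM over 7 measured genes in replicates 1 and 2, a level close to that of the cluster but with the opposite direction. Among its 5 tested genes, 4 were called higher in replicate 2 and 0 in replicate 1. Over all 367 tested miRNAs these counts were 111 and 119. Mir429 had no call and leaned the other way (19 and 8 counts, log2 ratio -0.98). The list was led by Mir203, of stratified epithelia, at 1383 ± 332 CPM, which made up most of its sum. Next came Mir200c, which holds cells in an epithelial state, at 111 ± 122 CPM (SD, n = 2 each). The endothelial list, 2 genes led by Mir126a, summed to 64764 and 33414 CPM, and both genes were higher in replicate 1. The second gene, Mir126b, overlaps Mir126a on the opposite strand, and its 31 and 3 counts may not be separate from it. The striated muscle list summed to 598 and 81.2 CPM over 9 measured genes, with all 4 tested genes higher in replicate 1 and Mir133a-1, Mir133a-2, Mir133b and Mir1a-1 at 0 in both libraries. In this list 5 genes share 18 bases with another miRNA gene and can be undercounted. The median log2 ratio of the tested muscle genes was -6.60, far beyond the ratios of the members. Mir206 had 737 and 182 counts in replicates 1 and 2, and Mir499 had 420 and 3. The leukocyte list summed to 3045 and 2955 CPM over 7 measured genes, with 1 of 6 tested genes higher in each replicate and Mir142b at 0. The endothelial list, in effect Mir126a, and the muscle list thus moved in the direction of the members, as did most calls of the neuroendocrine list. The muscle genes did so by far more than the members. Apart from Mir429, the tested epithelial genes moved against them. The part of other cell types in the members' difference was not tested.

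Other miRNAs known to repress FoxO genes were listed as well. These 8 genes together summed to 44695 CPM in replicate 1 and 26780 CPM in replicate 2. All 8 were called in the exact test, 6 higher in replicate 1 and 2 higher in replicate 2. Of all tested miRNAs 62.7% were called and 32.4% were higher in replicate 1. Each of the 8 had a summed count of at least 200. With that minimum 79.0% of 229 miRNAs were called, and 93 of the 229 were higher in replicate 1. The median log2 ratio of the 8 genes was -0.67 against 0.02 over all tested miRNAs. The 2 most abundant were Mir21a, at 28647 ± 10026 CPM with a log2 ratio of -0.69, and Mir27b, at 4046 ± 1330 CPM with a log2 ratio of -0.65 (SD, n = 2 each). Mir27a and Mir27b each share 18 bases with another miRNA gene, and Mir212 and Mir132 lie in the same cluster. The 8 genes are therefore not independent. Mir155 and Mir223 are also in the leukocyte list, so these lists overlap.

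**Figure D5:**
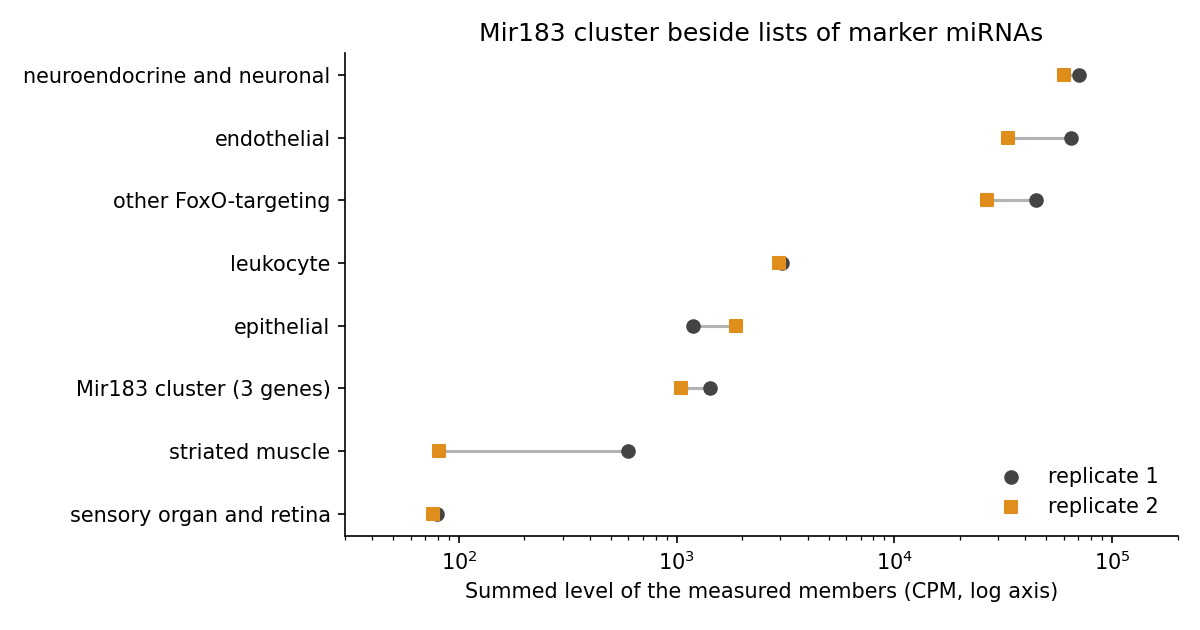
Summed level of the Mir183 cluster and of each marker list in replicate 1 (circles) and replicate 2 (squares), in CPM on a log axis, with a line joining the libraries. The cluster (1420 and 1048 CPM) lies near the epithelial list, above the muscle and sensory lists and below the leukocyte list.

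Each member's ratio was also compared directly with those of the 2 most abundant genes of each list, in 42 pairs with Fisher's exact test on counts and Benjamini-Hochberg adjustment over the pairs, a test chosen after values had been seen. This test too holds counting error only, by which most abundant miRNAs differ, so a pair that passed is no sign of a difference beyond the spread between samples. The 2 genes from which neither Mir182 nor Mir183 was told apart were Mir7b and Mir204. The log2 ratio of Mir182 exceeded that of Mir7b by 0.09 (95% interval -0.02 to 0.20, adjusted p 0.150, Fisher's exact test), and that of Mir183 exceeded it by 0.07 (-0.06 to 0.20, adjusted p 0.346). Against Mir204 the differences were 0.03 (-0.39 to 0.45) and 0.01 (-0.42 to 0.44), intervals wide enough to leave a moderate difference undetected.

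Against Mir375, Mir182 and Mir183 had the lower ratio, while Mir96 did not pass. The difference in log2 ratio was -0.22 for Mir182 (-0.32 to -0.12, adjusted p 2.16e-05, Fisher's exact test), -0.24 for Mir183 (-0.36 to -0.12, adjusted p 0.000163) and -0.35 for Mir96 (-0.92 to 0.20, adjusted p 0.277). Against Mir200c it was -3.40 for Mir182 (-3.81 to -3.01), -3.42 for Mir183 (-3.84 to -3.02) and -3.53 for Mir96 (-4.22 to -2.85). Against the endothelial Mir126a the sign was turned, at 0.53 for Mir182 (0.43 to 0.63) and 0.51 for Mir183 (0.39 to 0.63), so that Mir182 and Mir183 had the higher ratio. For Mir96 against Mir126a the difference of 0.39 (-0.17 to 0.95) did not pass (adjusted p 0.207, Fisher's exact test).

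No reads fell on the opposite strand of Mir183, Mir96 or Mir182 in either library, so their counts were equal with strand ignored.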

How the data were processed

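The deposited files give, for every miRNA gene, raw read counts (strand ignored, own strand, opposite strand), made by the authors on mm10 with GENCODE M21, per the deposited notes. Software for alignment, counting and adapter removal was not given in the sources used here. Which stranded column is own strand was read from its larger total. All 2202 identifiers matched GENCODE M21. Unmapped (40.6% and 29.8% of reads), multimapping (24.0% and 28.0%) and unassigned reads (8.94% and 9.44%) name no gene and were left out.

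From the own-strand counts, CPM, Wilson intervals and ranks were computed. TMM factors (edgeR 4.0.16) over miRNAs whose counts summed to 20 or more were 1.01 and 0.987. The exact conditional binomial test (SciPy 1.17.1) ran across all these miRNAs and was tested on simulated data. The simulated counts held counting error only, so they do not show how the test behaves under the spread between these libraries. With 1 library against 1, no edgeR quasi-likelihood fit was possible. Log2 ratios used a prior count of 0.5. DESeq2 1.42.0 size factors were an alternative.

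Named genes were the members, the 3 nearest in level to each, seed sharers, the 2 highest of each list, the adjacent miRNA genes, and the 3 clusters most similar in spread. Members and lists were chosen with earlier results of these data known.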

Additional observations from a re-analysis of the deposited data

How the results depend on the processing

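With DESeq2 size factors, total counts, strand ignored, a minimum summed count of 1 or 200, a prior count of 5, and without genes that share 18 bases, Mir182 and Mir183 kept their direction and their call, with log2 ratios from -0.54 to -0.37. At a minimum of 200 Mir96 was not tested. Mir96 passed only without genes that share 18 bases (log2 ratio -0.60, adjusted p 0.0455, exact test), and its adjusted p otherwise ran from 0.0558 to 0.461 in that test. The alternatives with all reads and with edgeR's dispersion were chosen after seeing the data. With edgeR's exact test and a common dispersion, Mir183 (log2 ratio -0.41) and Mir182 (-0.39) were no longer called, and 5 miRNAs were called in all, 3 higher in replicate 1 and 2 in replicate 2, since this test adds the spread over all miRNAs. In that test 20 miRNAs had an unadjusted p under 0.05. Its spread came from the same 2 libraries that were compared, so a ratio of ordinary size was unlikely to pass. With all reads as the total, 172 miRNAs in place of 111 were higher in replicate 2, and the mean levels became 142 for Mir183, 7.04 for Mir96, 210.2 for Mir182 and 359 for the 3 together, per 1000000 reads. A single library gave 413 to 563 CPM for Mir183, 19.6 to 29.0 for Mir96 and 616 to 828 for Mir182. No paired analysis was possible because there is 1 group. The depth limits Mir96, with 120 counts in all.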
